A study of Drosophila melanogaster with 3 samples.

Results

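The 32 genes described here encode the subunits of the Drosophila proteasome, 14 in the 20S core and 18 in the 19S cap. They were chosen by name: a probe belonged to them if its CG number in the scanner tables is that of a listed core or cap subunit, and the testis paralogs of these subunits were left out. All 32 genes were on the arrays and passed the filter on dim spots, with 36 probes of the 11733 tested and 32 genes of the 9176 tested that have a symbol. A gene with more than 1 probe is given by its brightest probe. Each of 3 spotted 2-colour cDNA arrays held RNA of homozygous kep1 mutant males (kep1-/kep1-, Cy5, channel 2) beside RNA of wild-type w1118 males (Cy3, channel 1). The kep1 gene encodes a STAR-family protein that binds RNA. The design text gives heads as the tissue, an age of 3 to 4 days and 3 independent RNA samples, while the source labels say only that the RNA is from males. No other allele, transgene or treatment is named, the background of the mutant stock is not given, and the number of flies behind each RNA is not given. No dyes were swapped, so a dye effect on a probe and an effect of genotype cannot be told apart, nor can an effect of kep1 and any other difference between the stocks.

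The proteasome degrades proteins that carry chains of ubiquitin. Its core is a barrel of stacked rings: the outer alpha rings gate the entry, and the inner beta rings hold the sites that cut peptide bonds inside the chamber. The cap sits on the end of the barrel. Its base contains a ring of ATPases that unfolds the substrate and threads it into the core, together with subunits that bind ubiquitin, and its lid contains the enzyme that removes the ubiquitin chain. Its subunits assemble in fixed proportions, and in Drosophila and other animals a transcription factor of the Nrf family (Cnc in flies) raises many of their genes together when proteasome activity is low.

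The probe for kep1, listed as qkr58E-3 in the gene table, had scanner foregrounds of 253.6, 240.3 and 227.9 in the mutant channel of arrays 1, 2 and 3, against 852, 865 and 1343 in the wild-type channel. The mutant channel was lower on each array, with a log2 ratio of -1.69 ± 0.40 (SD, n = 3) and a limma adjusted p of 0.0726 (a moderated test of the mean ratio against 0). All 32 proteasome genes exceeded their local background in all 6 channels. The 95th percentile of the blank spots is a harder test, and between 24 and 32 of the 32 genes exceeded it in a given channel: 24 did so in all 6 channels and 8 in some. Between arrays, the log2 ratios of all probes correlated with Pearson r of 0.41 (arrays 1 and 2), 0.69 (arrays 1 and 3) and 0.48 (arrays 2 and 3). All 12 eye markers measured, among them the rhodopsins, exceeded the blank percentile in all 6 channels, and 5 of 6 neuronal markers did. The eye markers had median log2 ratios of 0.32, -0.31 and 0.04 on arrays 1, 2 and 3, and the neuronal markers 0.09, -0.12 and 0.31. Genes of other tissues were also present: 5 of 7 gut enzyme genes and 8 of 11 testis and accessory gland genes exceeded it in all 6 channels. All 7 gut genes were below 0 on each array, with summed normalised intensities (linear, after background correction and loess within the array) of 6309 to 13017 in mutant channels and 16387 to 28273 in wild-type channels. Of the 11 testis and accessory gland genes 9 were below 0 on each array, with sums of 7899 to 17366 in mutant channels and 16276 to 28636 in wild-type channels. The 4 yolk protein and fit genes, which mark females, summed to 3018, 5290 and 2424 in mutant channels of arrays 1, 2 and 3. In wild-type channels they summed to 3858, 922 and 2242. Their median log2 ratios were -0.27, 2.66 and 0.28, so the direction of the median differed between arrays. Yp3 (0.78, 2.39 and 0.64) and fit (0.31, 2.93 and 1.17) were above 0 on each array (50%, against 17.9% of all genes). Yp1 (-2.54, 2.96 and -0.78) and Yp2 (-0.86, 0.13 and -0.08) had mixed signs. Yp2 exceeded the blank percentile in 1 of 6 channels and fit in 3. The part of these tissues in the values below was not tested. In such samples fewer cells of a type and less RNA per cell cannot be told apart.

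No proteasome gene passed the test. At a limma adjusted p under 0.05, over all probes, 0 of the 32 genes were called, against 17 of 11733 probes (0.145%), 8 of them higher (0.0682%) and 9 lower (0.0767%). The ratios were small: the highest was Rpt6 at 1.24-fold higher in the mutant and the lowest Rpt1 at 1.16-fold lower. Most of the values lay above 0, however, with means above 0 for 26 of 32 genes. On all 3 arrays 16 genes (50%) were above 0, where 17.9% of all genes were, and 2 genes (6.25%), Prosbeta1 and Rpt1, were below 0, where 21.5% of all genes were. At an unadjusted limma p under 0.05, 9 genes were above 0 (28.1%, against 5.7% of all genes) and 2 were below it (6.25%, against 9.97%). That count of 9 became 5, 5 and 3 without array 1, 2 or 3, 4 with no background correction and 3 with plain background subtraction. It lay between 3 and 9 over all alternatives, while the count of 2 lay between 0 and 2. The count over all probes is in either direction, so it does not match the count of genes above 0. It was 1817 and became 1332, 1803 and 1194 without array 1, 2 or 3. That number was 1974 with no background correction and 1946 with plain subtraction. The median log2 ratio of the 32 genes was 0.12, 0.17 and 0.04 on arrays 1, 2 and 3, and 0.13 for the mean ratios, beside -0.01 for the mean ratios of all genes. Without array 1 the median of the 32 genes was 0.086. The limma 95% intervals, taken per gene without adjustment, reflect the spread among the 3 arrays and do not cover a dye effect. For 31 of 32 genes the interval lay within 1.5-fold either way, and the exception, Rpt2, reached 1.52-fold higher. The offset of the background correction draws dim ratios towards 0, which these intervals do not cover.

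**Figure D1:**
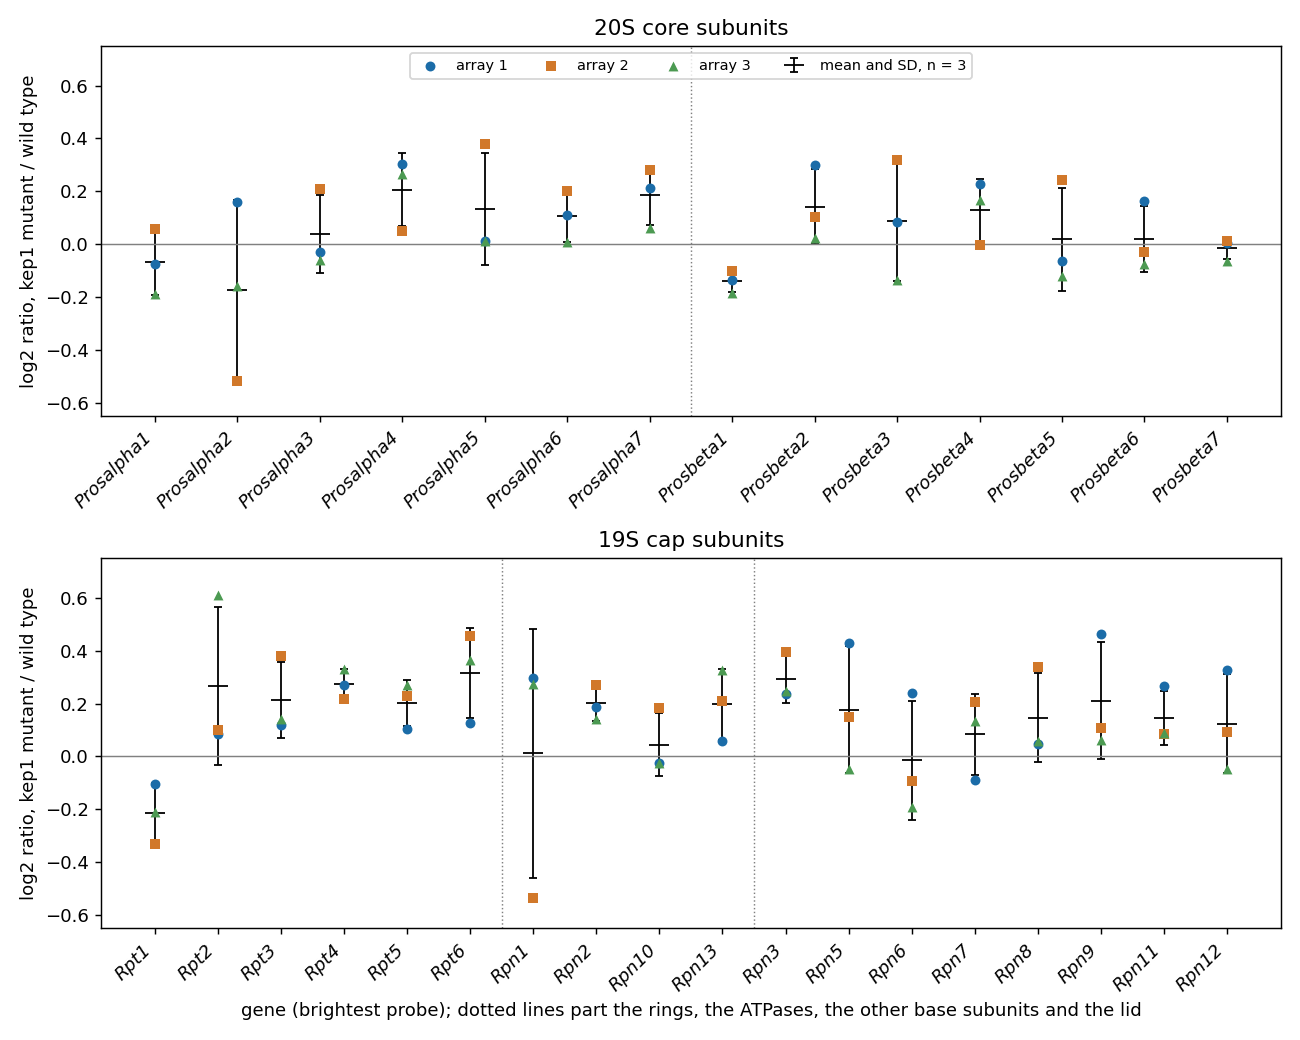
Log2 ratio of kep1 mutant over wild type (y axis) for the 32 proteasome genes (x axis), core above and cap below, with each array as a symbol and bars for the mean and SD (n = 3). Most points lie above 0, and Rpt1 and Prosbeta1 are below 0 on all 3 arrays.

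The alpha ring forms the gate and the docking surface for the cap. Its 7 genes had a median log2 ratio of 0.11, with 4 genes above 0 on all 3 arrays (57.1%) and none below. Beside the counts of this and the other subcomplexes, 17.9% of all genes were above 0 on all arrays and 21.5% below. Prosalpha7 had normalised intensities of 1631, 2638 and 898 in the mutant channels of arrays 1, 2 and 3, against 1408, 2173 and 861 in the wild-type channels. Each array's mutant channel was the brighter, although the ranges of the channels overlap because arrays differ in brightness. Its log2 ratio was 0.18 ± 0.11 (SD, n = 3), with a limma adjusted p of 0.304. Prosalpha4 read 363, 227 and 295 in mutant channels and 295, 219.5 and 246 in wild-type channels, a log2 ratio of 0.21 ± 0.14 (SD, n = 3). It exceeded the blank percentile in 2 of 6 channels. With the authors' deposited log2 table, which has no background subtraction, its ratio was 0.46 after removal of each array's median. Prosalpha5 (0.01, 0.38 and 0.01 on arrays 1, 2 and 3) and Prosalpha6 (0.11, 0.20 and 0.01) were also above 0 on each array, but close to it on at least 1, and the mean of Prosalpha5, 0.13, became 0.010 without array 2. The other 3 genes had mixed signs. Prosalpha2 had the widest spread of the core genes, with log2 ratios of 0.16, -0.52 and -0.16, and Prosalpha1 (-0.07 ± 0.12) and Prosalpha3 (0.04 ± 0.15) lay within 1 SD of 0 (n = 3 each).

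The beta ring carries the catalytic sites, on Prosbeta1 (caspase-like cleavage), Prosbeta2 (trypsin-like) and Prosbeta5 (chymotrypsin-like). Its 7 genes had a median log2 ratio of 0.02, with 1 gene above 0 on all arrays and 1 below. Prosbeta1 read 1142, 1479 and 856 in mutant channels and 1254, 1587 and 972 in wild-type channels. The mutant channel was the dimmer on each array, with log2 ratios of -0.13, -0.10 and -0.18 and a mean of -0.14 ± 0.04 (SD, n = 3, limma adjusted p 0.322). A second, dimmer probe of Prosbeta1 gave -0.22, 0.21 and -0.28, so its 2 probes had opposite signs on array 2. Prosbeta2 read 702, 1030 and 556 in mutant channels and 570.4, 960 and 547 in wild-type channels. That is 0.14 ± 0.14 (SD, n = 3), above 0 on each array and 0.02 on array 3. Prosbeta5 had mixed signs, at -0.06, 0.24 and -0.12. The other 4 subunits, Prosbeta3, Prosbeta4, Prosbeta6 and Prosbeta7, are structural and have no active site. None of the 4 had the same sign on all arrays, and their mean log2 ratios were between -0.02 and 0.13. Prosbeta7 had the smallest ratio of them, with 0.00, 0.01 and -0.06 on arrays 1, 2 and 3. One further probe, whose clone is named Prosbeta4 in the tables of arrays 2 and 3 and eIF5B in that of array 1, read -0.03 ± 0.05 (SD, n = 3) and was not counted.

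The ATPase ring of the base had the highest median log2 ratio of the subcomplexes, 0.24, with 0.11, 0.22 and 0.30 on arrays 1, 2 and 3. Of its 6 genes 5 were above 0 on all arrays (83.3%, against 17.9% of all genes) and 1, Rpt1, was below (16.7%, against 21.5%). All but Rpt2 had a limma unadjusted p under 0.05 (83.3%, against 15.7% of all genes in either direction). The ATPase median was added after seeing the data. Rpt6 read 1053, 2134 and 2279 in mutant channels and 964, 1557 and 1768 in wild-type channels. Its log2 ratios of 0.13, 0.45 and 0.37 averaged 0.32 ± 0.17 (SD, n = 3), 1.24-fold, with a limma adjusted p of 0.200. Rpt4 read 562, 908 and 464 in mutant channels and 465, 781 and 368 in wild-type channels. Its ratios were the most even of the ATPases, 0.27, 0.22 and 0.33, and it had the lowest limma adjusted p of all 32 genes, 0.136, at a mean of 0.27 ± 0.06 (SD, n = 3). Rpt3, one of the ATPases whose C-terminal tail docks in the alpha ring, read 2957, 4896 and 3318 in mutant channels and 2726, 3763 and 3007 in wild-type channels. Its mean was 0.21 ± 0.14 (SD, n = 3), and array 2 was the highest at 0.38.

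Rpt5 and Rpt2 also dock in the alpha ring by their tails. Rpt5 read 1358, 1881 and 2075 in mutant channels and 1265, 1604 and 1718 in wild-type channels, a log2 ratio of 0.20 ± 0.09 (SD, n = 3). Rpt2 had ratios of 0.09, 0.10 and 0.61 on arrays 1, 2 and 3, a mean of 0.27 ± 0.30 (SD, n = 3). Without array 3 its mean was 0.09. Rpt1 stood apart from the other ATPases: it read 426, 456 and 600.4 in mutant channels and 458, 574 and 695 in wild-type channels. The mutant channel was the dimmer on each array, at a log2 ratio of -0.22 ± 0.11 (SD, n = 3) and a limma adjusted p of 0.248.

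**Figure D2:**
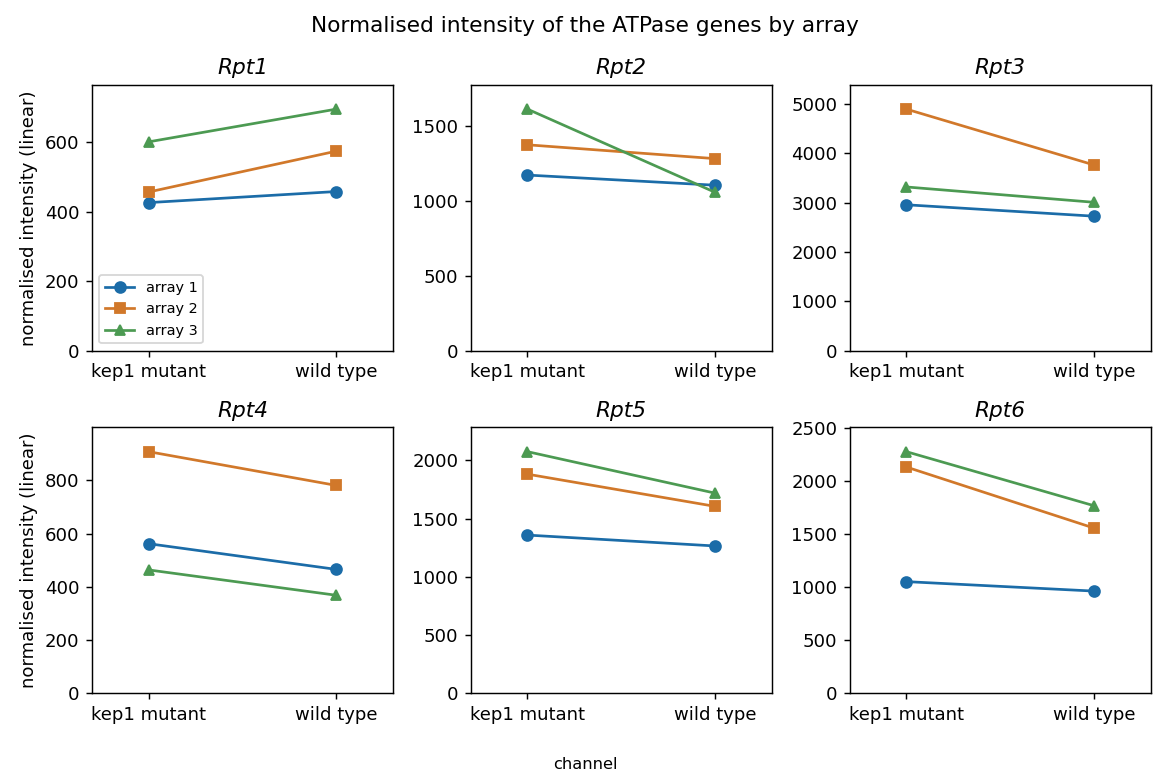
Normalised intensity on a linear scale (y axis) of the 6 ATPase genes in the kep1 mutant and wild-type channels (x axis), with a line joining the channels of each array. The lines of Rpt2 to Rpt6 slope down to wild type on all 3 arrays, and those of Rpt1 slope up.

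The base also holds 4 subunits without ATPase activity, with a median log2 ratio of 0.12 and 2 genes above 0 on all arrays. Rpn2, a scaffold, read 792, 473 and 347 in mutant channels and 696, 392 and 315 in wild-type channels, a ratio of 0.20 ± 0.07 (SD, n = 3, limma adjusted p 0.216). Rpn13, a ubiquitin receptor bound to Rpn2, read 2902, 2394 and 1412 in mutant channels and 2788, 2072 and 1127 in wild-type channels. Its ratio of 0.20 ± 0.13 (SD, n = 3) was above 0 on each array, whereas its second probe had mixed signs and a mean of 0.06 ± 0.20 (SD, n = 3). Rpn10, the ubiquitin receptor at the junction of base and lid, was at 0.04 ± 0.12 with its brightest probe and -0.05 ± 0.10 with the other (SD, n = 3 each). Rpn1, a scaffold that binds ubiquitin and shuttle proteins, had the widest spread of all 32 genes, with log2 ratios of 0.30, -0.53 and 0.27. Its mean of 0.01 became 0.28 without array 2.

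The lid had a median log2 ratio of 0.15, with array medians of 0.25, 0.13 and 0.06, and 4 of its 8 genes were above 0 on all arrays. Rpn3 read 2385, 2570 and 1201 in mutant channels and 2025, 1952 and 1012 in wild-type channels. Its ratio was 0.29 ± 0.09 (SD, n = 3), with a limma adjusted p of 0.144, and its second probe, which read 207 to 268 in all channels, gave 0.05 ± 0.11. Rpn11, the deubiquitinase that removes the chain as the substrate enters, read 1255, 1218 and 703 in mutant channels and 1044, 1147 and 661 in wild-type channels. Its log2 ratio was 0.15 ± 0.10 (SD, n = 3), and 0.088 without array 1. Its partner Rpn8 had 0.05, 0.34 and 0.06, a mean of 0.15 ± 0.17 (SD, n = 3) that became 0.051 without array 2. Rpn9 was above 0 on each array (0.47, 0.11 and 0.06), with array 1 the highest, and its mean of 0.21 became 0.085 without that array. The other 4 lid genes, Rpn5, Rpn6, Rpn7 and Rpn12, are scaffold subunits with the PCI fold of Rpn3 and Rpn9. All 4 had mixed signs. Rpn5 had 0.43, 0.15 and -0.05 on arrays 1, 2 and 3, and its mean of 0.18 ± 0.24 (SD, n = 3) became 0.050 without array 1. Rpn12 had 0.33, 0.09 and -0.05, and its mean of 0.12 ± 0.19 (SD, n = 3) became 0.023 without array 1. Array 1 was thus the highest in both. Rpn6 was at -0.01 ± 0.23 and Rpn7 at 0.08 ± 0.15 (SD, n = 3 each).

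The medians of core and cap differed on each array in 1 direction. The 14 core genes had medians of 0.10, 0.08 and -0.06 on arrays 1, 2 and 3, and the 18 cap genes 0.16, 0.19 and 0.14. The core median minus the cap median was -0.06, -0.11 and -0.20, and -0.12 for the mean ratios. The core median of the mean ratios, 0.064, became 0.0056 without array 2. An exact sign-flip test over 3 arrays cannot give a p under 0.25, so this difference carries no test. Above 0 on all arrays were 5 of 14 core genes (35.7%) and 11 of 18 cap genes (61.1%), with 1 gene below in each. Of all genes 17.9% were above 0 on all arrays and 21.5% below. The order of the subcomplexes was not kept across arrays: the lid had the highest median on array 1 and the ATPases on arrays 2 and 3, while the beta ring was the lowest on each.

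**Figure D3:**
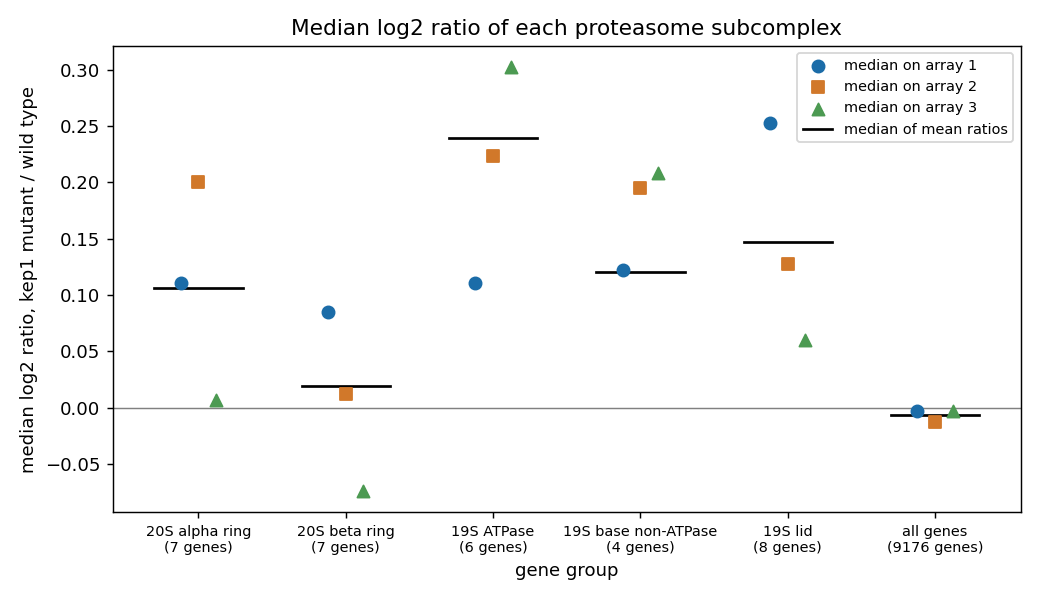
Median log2 ratio of kep1 mutant over wild type (y axis) of each subcomplex and of all genes (x axis), with each array as a symbol and a line for the median of the mean ratios. The beta ring has the lowest median of the 5 subcomplexes on each array, and the median of all genes is close to 0.

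The position of the genes was compared as well. Both channels held RNA of males, which have 1 X chromosome. The X-linked median was added after seeing the data, and no cause of a difference between chromosomes was tested. All 4 proteasome genes on the X chromosome, Prosalpha4, Rpt3, Rpt4 and Rpt6, were above 0 on all arrays, where 19.9% of 1459 X-linked genes were, and all 4 were higher at a limma unadjusted p under 0.05, as were 8.16% of X-linked genes. Their median log2 ratio was 0.24, beside 0.00 for all X-linked genes. Rpt3, Rpt4 and Rpt6 are also ATPases, so this median and that of the ATPase ring share those genes. Prosalpha4 exceeded the blank percentile in 2 of 6 channels. Of the 28 proteasome genes on autosomal arms 12 were above 0 on all arrays (42.9%, against 17.4% of 7650 autosomal genes), with a median of 0.12. Both genes below 0 on all arrays are on arm 2R, and the 10 genes of that arm had a median of 0.03. Without the X-linked genes the core median minus the cap median was -0.10, -0.05 and -0.15 on arrays 1, 2 and 3.

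**Figure D4:**
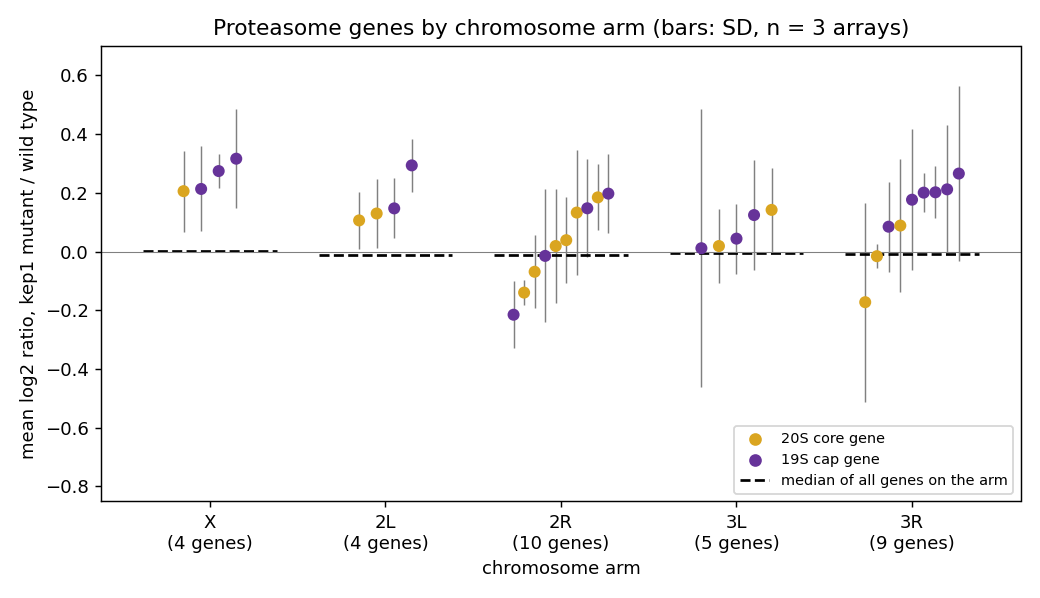
Mean log2 ratio of kep1 mutant over wild type (y axis) of each proteasome gene by chromosome arm (x axis), coloured by core and cap, with SD bars (n = 3) and the median of all genes of the arm as a dashed line. The 4 X-linked genes lie between 0.21 and 0.32, and both genes below 0 on all 3 arrays are on 2R.

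Drosophila testes express a second copy of several subunits, and 10 of 14 such paralogs were measured. None was above 0 on all arrays (against 17.9% of all genes) and 4 were below (40%, against 21.5%), with a median log2 ratio of -0.02. Only 3 of the 10 exceeded the blank percentile in all channels, so most of these ratios come from dim spots. Rpt6R read 291, 400.4 and 261 in mutant channels and 369, 471 and 301 in wild-type channels, a ratio of -0.26 ± 0.07 (SD, n = 3, limma adjusted p 0.155). Prosbeta4R2 was at -0.25 ± 0.11, Rpt3R at -0.14 ± 0.01 and Rpt4R at -0.02 ± 0.03 (SD, n = 3 each). Rpt4R was close to 0 on array 3 (-0.002), and its second, dimmer probe had mixed signs and a mean of 0.01 ± 0.03 (SD, n = 3). The ratio of the subunit was above that of its paralog on all arrays in 5 of 10 pairs and below it on all arrays in none. No such share over pairs of other genes is given here, and Prosalpha4, Prosbeta2 and Prosbeta4 each entered more than 1 pair. Among the 5 pairs is Prosbeta2 with Prosbeta2R2, a paralog that exceeded the blank percentile in 0 of 6 channels. The log2 difference of Rpt6 minus Rpt6R was 0.47, 0.69 and 0.57 on arrays 1, 2 and 3, and that of Prosbeta4 minus Prosbeta4R2 was 0.37, 0.36 and 0.40. Prosbeta4R2 exceeded the blank percentile in 2 of 6 channels. With the brighter paralog Prosbeta4R1, which exceeded it in all 6, the difference from Prosbeta4 had mixed signs (0.34, -0.19 and 0.30). Most testis and accessory gland genes given above were below 0, and their part in the differences between subunits and paralogs was not tested. Cross-hybridisation between a subunit and its paralog was not tested.

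Of 15 listed regulators and partners of the proteasome 14 were measured. None passed the test, and their median log2 ratio was -0.03. On all arrays 3 were above 0 (21.4%, against 17.9% of all genes) and 6 below (42.9%, against 21.5%). Uch-L5, a deubiquitinase that in mammals docks on Rpn13, read 763, 709 and 452 in mutant channels and 1019, 893 and 562 in wild-type channels. The mutant channel was the dimmer on each array, with a log2 ratio of -0.35 ± 0.06 (SD, n = 3) and a limma adjusted p of 0.0995, lower than that of any subunit. Npl4, a cofactor of the TER94 segregase, had ratios of -0.08, -0.61 and -0.25. REG, the activator that caps the core in place of the 19S particle, had -0.06, -0.63 and -0.22, and Usp5, which takes apart free ubiquitin chains, had -0.09, -0.58 and -0.20. In these 3 genes array 2 was the lowest, and Usp5 exceeded the blank percentile in 2 of 6 channels. The brightest probe of cnc, which encodes Cnc, had -0.10, -0.49 and -0.06, and a second, dimmer probe had a mean of 0.00 ± 0.05 (SD, n = 3). A link between cnc and the subunit genes was not tested.

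**Figure D5:**
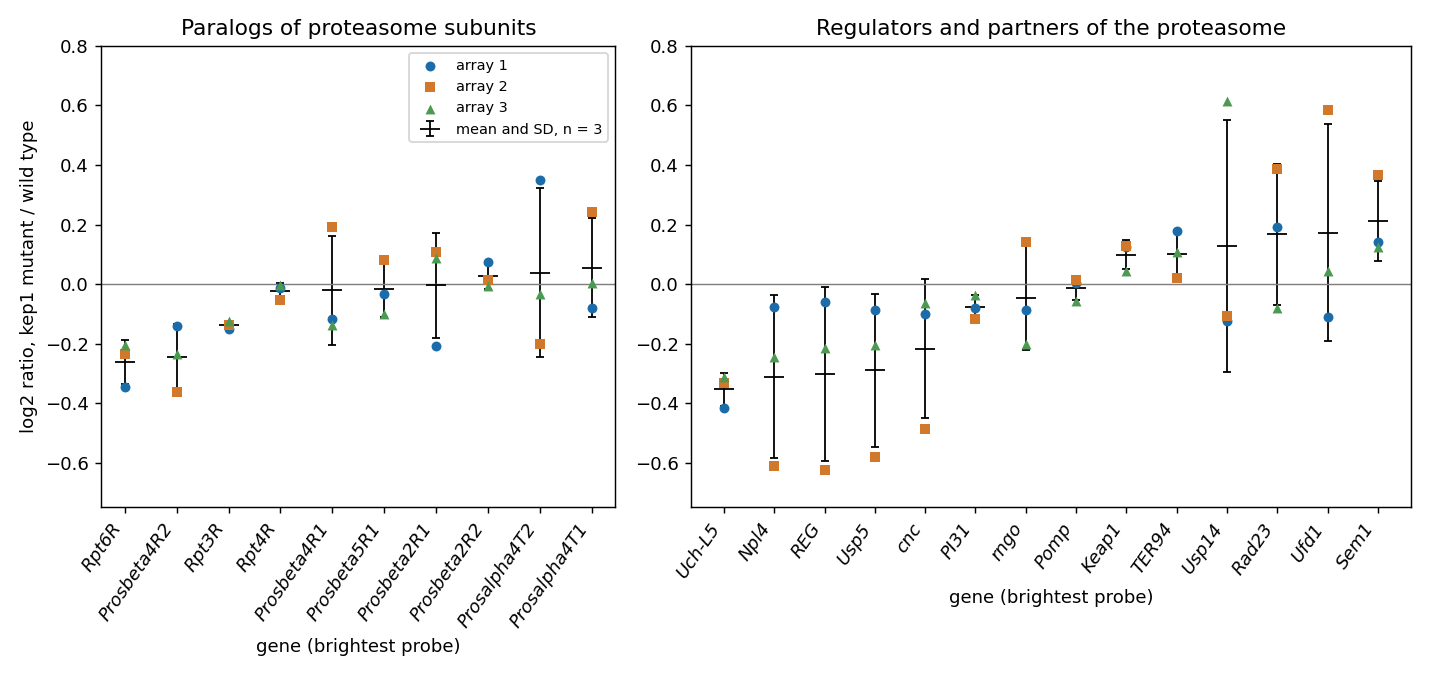
Log2 ratio of kep1 mutant over wild type (y axis) of 10 measured paralogs (left) and 14 measured regulators and partners (right) of the proteasome, with each array as a symbol and bars for the mean and SD (n = 3). Rpt6R, Prosbeta4R2 and Uch-L5 are below 0 on all 3 arrays, and no paralog is above 0 on all 3.

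Upstream of the proteasome, 4 of 5 genes for ubiquitin and its activating enzyme were measured and none passed the test. The polyubiquitin genes Ubi-p63E and Ubi-p5E each encode several ubiquitins in a row. Ubi-p63E read 2988, 3575 and 2328 in mutant channels and 3354, 3939 and 2907 in wild-type channels, a ratio of -0.21 ± 0.10 (SD, n = 3, limma adjusted p 0.238), and Ubi-p5E was at 0.08 ± 0.10 (SD, n = 3). Of 28 ubiquitin-conjugating enzymes (E2) 23 were measured, with 5 above 0 on all arrays (21.7%), 6 below (26.1%) and none past the test. Those shares lie near the 17.9% and 21.5% of all genes. The X-linked gene ben, an E2 known in flies from its role in forming a neuronal synapse, read 699, 434 and 884 in mutant channels and 449.8, 332 and 395 in wild-type channels. Its ratio of 0.73 ± 0.40 (SD, n = 3) was above 0 on each array at a limma adjusted p of 0.160, and that p was between 0.0333 and 0.435 over the alternatives. CG2574 had -0.79, -0.76 and -0.33 with its brightest probe, a mean of -0.63 ± 0.26 (SD, n = 3), and a second probe gave -0.13 ± 0.23. CG10862 was at -0.60 ± 0.33 and CG10254 at -0.46 ± 0.33 (SD, n = 3 each).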

How the data were processed

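Per the file headers, the deposited scanner tables give, per spot and channel, the foreground intensity, the intensity of the local background and its SD, linear and without normalization. The deposited log2 table was checked here against those values: it is the log2 ratio of foregrounds, channel 2 over channel 1, without background subtraction (largest difference 5.32e-05). The image software is not given in the sources used here. Which RNA is in which channel rests on the labels. Each probe was spotted in duplicate, and 22, 76 and 26 spots marked to be ignored on arrays 1, 2 and 3 were left out.

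Background was corrected with normexp (offset 50), loess normalization was run within arrays (weight 0 for spots that were controls, blank or failed) and duplicate spots were averaged, in limma 3.58.1 under R 4.3.3. The filter kept probes that were over local background by 2 SDs of it in at least 1 channel on 2 arrays or more. The mean log2 ratio, mutant over wild type, was tested against 0 with limma over all 11733 probes, two-sided, with Benjamini-Hochberg adjustment at 0.05. The fit was run on simulated arrays that held no dye effect on single probes and no mixed tissues, so that run does not bear on either. Precision is limited by the number of arrays, 3, and the p-values reflect only how far these samples differ among themselves, which may be partly technical. Normalised intensities are linear values after background correction and loess, and are not compared between probes.

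Genes were named through their CG numbers in an NCBI RefSeq gene table (Release 6 plus ISO1 MT), used for names and chromosome arms only. All members are named. Of each other list, up to 4 genes were named, those of 1 sign on all arrays with the largest mean ratio, and cnc was added. The members and lists were chosen with earlier results of these data known. The alternatives were other background corrections, normalizations, filters, variance models and probe summaries, the deposited table, a looser threshold and leaving out each array. The deposited table was used after the median of each array was subtracted. Counts above 0 on all arrays, and the ATPase and X-linked medians, were added after seeing the data.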

Additional observations from a re-analysis of the deposited data

How the results depend on the processing

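No proteasome gene was called under any alternative, also not at an adjusted p under 0.1, and the core median minus the cap median stayed negative, between -0.18 and -0.08. Genes above 0 on all arrays numbered 15 to 20; leaving out 1 array, 26.5% to 29.6% of all genes were above 0 on the remaining ones. The count over all probes did depend on the processing: 17 probes became 434 with no background correction, 390 with plain subtraction, 70 with median centring, 0 with scaling between arrays (1842 at an unadjusted p under 0.05, limma), 407 with the deposited log2 table, 35 with both channels over background on all arrays, 359 with a filter at the blank percentile, 292 with an intensity trend and robust variances, 249 at an adjusted p under 0.1, and 0 to 100 leaving out 1 array (0 without array 1 or 3, with 1332 and 1194 at an unadjusted p under 0.05, and 100 without array 2). Genes below 0 on all arrays were 0 with the deposited table, 1 with probes of a gene averaged, and 2 to 6 leaving out 1 array. The median of all members, 0.13, was 0.21 with the deposited table, 0.091 with print-tip loess and 0.086 to 0.16 leaving out 1 array, and that of the core, 0.064, was 0.023 with print-tip loess, 0.12 with the deposited table and 0.0056 to 0.10 leaving out 1 array. The deposited table gave 0.26 for the cap, which print-tip loess put at 0.15. The X-linked median, added after seeing the data, was 0.31 with no background correction, 0.33 with plain subtraction and 0.37 with the deposited table.

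Of 448 member values under alternatives 22 changed sign, in 11 members, and 21 members never did. These were Prosbeta7 (0.00020) and Rpn1 (-0.0051) with no background correction. With print-tip loess they were Prosbeta5 (-0.060), Prosbeta7 (0.0038), Rpn6 (0.053) and Rpn7 (-0.041), and with scaling Prosbeta5 (-0.012). The deposited table, with array medians removed, turned Prosalpha1 (0.017), Prosbeta7 (0.075), Rpn6 (0.045) and, among the paralogs, Rpt4R (0.028). Before that removal its medians over all spots were -0.082, -0.20 and -0.045 on arrays 1, 2 and 3. Averaged probes turned Rpn10 (-0.0026). Leaving out 1 array gave ranges of -0.053 to 0.065 for Prosbeta6, -0.13 to 0.28 for Rpn1, -0.34 to 0.00072 for Prosalpha2, -0.046 to 0.088 for Prosalpha3, -0.026 to 0.20 for Prosbeta3, -0.093 to 0.089 for Prosbeta5, -0.025 to 0.079 for Rpn10, -0.14 to 0.073 for Rpn6 and -0.030 to 0.0082 for Prosbeta7. The cause was not tested for any of these changes. Among the other named genes, ben passed an adjusted p of 0.05 under 4 alternatives, CG2574 under 2 and Prosbeta4R2 under 1, and kep1 did so under 6. The gene cnc was not followed over the alternatives. The test is paired by array, since each ratio compares the mutant and wild-type RNA of 1 array. All arrays form 1 group, and their numbers only follow the order of the records.

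Depth of signal limits the dimmer members most: 8 of 32 genes did not exceed the blank percentile in every channel, and the mean absolute difference between duplicate spots had a median over members of 0.123 on the log2 scale. With 3 arrays and no dye swap, dye and genotype cannot be told apart.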
